A study of Mus musculus with 15 samples.

Results

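The drug efflux transporters described here are 7 genes of the ATP-binding cassette (ABC) family, Abcb1a, Abcb1b, Abcc1, Abcc3, Abcc4, Abcc5 and Abcg2. They were taken by name from a table of raw gene counts with 22165 genes, measured in 15 libraries of sorted mouse thymic dendritic cells. All 7 were in the table, and 6 had enough counts to enter the statistical fit with 11746 genes. Abcc3 did not and is given by its counts. The transporters were picked with their levels in all 6 groups already known, so their levels and differences are given as a description, without p-values.

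The groups were conventional dendritic cells type 1 (cDC1), conventional dendritic cells type 2 (cDC2) and plasmacytoid dendritic cells (pDC), each from WT mice and from Itgax-cre Stk11 fl/fl mice, labelled KO. Stk11 encodes LKB1, a kinase that activates AMP-activated protein kinase and its relatives. Itgax encodes CD11c, so the Cre recombinase is driven in CD11c-expressing cells, which include dendritic cells but also some other leukocytes. All mice were C57BL/6, of both sexes, and whether the WT mice carried Cre or floxed alleles was not stated. Every mouse, WT and KO alike, had received B16 melanoma cells secreting Flt3L, the growth factor of dendritic cells, under the skin at 8 to 12 weeks of age, and the thymus was taken 9 to 12 days later. The cells were enriched with CD11c beads and sorted as CD8a+ CD11c+ MHCII+ (cDC1), CD11b+ CD11c+ MHCII+ (cDC2) or Siglec-H+ with intermediate CD11c (pDC). There were 2 libraries of cDC1 WT, 2 of cDC1 KO, 2 of cDC2 WT and 3 each of cDC2 KO, pDC WT and pDC KO. Nothing says that the libraries of a group came from separate mice, so the spread between them may be partly technical.

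ABC exporters are membrane proteins that spend ATP to move lipids, metabolites, conjugates and drugs out of the cell or across inner membranes. P-glycoprotein, which mice make from the neighbouring genes Abcb1a and Abcb1b, exports many hydrophobic drugs and dyes. The Abcc members here are multidrug resistance-associated proteins (MRPs), which export organic anions such as glutathione conjugates, leukotrienes, cyclic nucleotides and prostanoids, and Abcg2 (breast cancer resistance protein) exports porphyrins, urate and many drugs.

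The libraries held between 3928164 counts (cDC2 WT replicate 1) and 12142712 counts (cDC2 KO replicate 2). Levels are counts per 1000000 counts (CPM) after trimmed-mean scaling. The cDNA was primed on the poly(A) tail and barcoded there, so CPM were not divided by gene length and levels are compared between groups, never between genes. The summed CPM of 12 pDC markers lay between 35700 and 56000 in the pDC libraries and between 1120 and 2070 elsewhere. Itgam, which encodes CD11b, lay between 102 and 260 CPM in cDC2, at 1.88 and 0.364 CPM in cDC1 WT, at 13.1 and 9.92 CPM in cDC1 KO, between 2.97 and 7.81 CPM in pDC WT and between 63.4 and 68.7 CPM in pDC KO. The cDC2 marker sum did not set cDC2 (562 to 939 CPM) apart from pDC (535 to 712 CPM). The cDC1 marker sum was 10300 and 10900 CPM in cDC1 WT and 6950 and 8160 CPM in cDC1 KO. It did not set cDC1 KO apart from pDC WT (7080 to 8550 CPM) or pDC KO (7000 to 9580 CPM). The cDC1 marker Xcr1 reached 226 CPM in cDC2 WT replicate 1, against 51.4 to 67.1 CPM in the other cDC2 libraries. At equal depth, 10840 and 11359 genes were detected in the cDC2 WT libraries and 12430 to 12760 in the cDC2 KO libraries. Stk11 itself lay between 34.2 and 66.8 CPM in WT and between 18.4 and 43.5 CPM in KO libraries. Tags near the poly(A) tail need not cover the deleted part of Stk11, so this does not check the deletion.

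Abcb1a (ENSMUSG00000040584) encodes the P-glycoprotein known from the gut wall and the blood-brain barrier, and it ranged from no count to 46.7 CPM. Its gene lies at chr5:8660077-8748575 on the plus strand in the GENCODE annotation of GRCm38, the build also called mm10. In cDC2 it was at 3.40 and 7.83 CPM in the WT libraries and at 40.5, 46.7 and 40.4 CPM in the KO libraries. In cDC1 it was at 2.35 and 0.364 CPM in WT and at 17.4 and 12.1 CPM in KO. Every KO library of both conventional subsets lay above every WT library of its subset, and the cDC2 KO libraries differed little among themselves. In pDC the WT libraries were at 0.26, 0 and 0 CPM, and the KO libraries at 1.35, 3.47 and 0 CPM, so that WT and KO overlapped at 0. Bulk values cannot tell a higher level in each cell from a larger share of cells with a high level.

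The group means of Abcb1a were 42.5 ± 3.6 CPM (SD, n = 3) in cDC2 KO, 14.8 ± 3.74 (SD, n = 2) in cDC1 KO, 5.62 ± 3.13 (SD, n = 2) in cDC2 WT, 1.61 ± 1.75 (SD, n = 3) in pDC KO, 1.35 ± 1.4 (SD, n = 2) in cDC1 WT and 0.0868 ± 0.15 (SD, n = 3) in pDC WT. Of the neighbours in this order, cDC2 WT overlapped pDC KO, and pDC KO overlapped cDC1 WT. The other neighbours did not overlap. The fitted KO minus WT difference was 3.50 ± 0.97 on the log2 scale (SE) in cDC1, an 11.3-fold higher level, and 2.89 ± 0.82 in cDC2, a 7.43-fold higher level. For cDC1 the value rested on few WT counts, 10 and 2, and ranged from 2.65 without WT replicate 2 to 5.27 without WT replicate 1. In pDC the KO libraries together held 34 Abcb1a counts and the WT libraries 2. The ratio of their rates was 21.1, with a 95% exact interval of 5.4 to 181 that covers counting error only, and 25 of the 34 counts came from pDC KO replicate 2. The fitted pDC difference was 4.05 ± 1.16, and 2.84 without that library.

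Averaged over the subsets, the KO minus WT difference of Abcb1a was 3.48 ± 0.57 on the log2 scale (SE), an 11.2-fold higher level. It was the single transporter past an adjusted p of 0.05 in this average by edgeR's quasi-likelihood test, among 36 of the 11746 genes (0.306%). Because the transporters were picked on these levels, nothing is read from that count. Abcb1a did not pass when cDC1 WT replicate 2, cDC1 KO replicate 1, cDC2 WT replicate 1 or cDC2 KO replicate 2 was left out, and it passed in the other 11 of 15 fits. It also did not pass in an average over cDC1 and cDC2 alone, where the difference was 3.20. Within single subsets 0 of 6 transporters passed, beside 0.0255%, 0.119% and 0.0681% of genes in cDC1, cDC2 and pDC. At an unadjusted p under 0.05 there were 2, 1 and 2 transporters in cDC1, cDC2 and pDC, and DESeq2 called 0, 1 and 0, the 1 being Abcb1a in cDC2. Shares of all genes under these rules are not given here or below, so such counts are not read as results. The difference between the KO effects of cDC2 and cDC1 was -0.61 ± 1.19, that of pDC and cDC1 was 0.56 ± 1.25 and that of pDC and cDC2 was 1.16 ± 1.34, all within about 1 SE of 0.

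Between subsets of the same genotype, Abcb1a was 25.4-fold lower in pDC KO than in cDC2 KO (log2 -4.67 ± 0.78, SE) and 8.83-fold lower in pDC KO than in cDC1 KO (-3.14 ± 0.78). All pDC KO libraries lay below all conventional KO libraries. In WT the cDC2 libraries held 66 counts and the pDC libraries 2, a ratio of rates of 74.4 (95% exact interval 19.8 to 627, counting error only). The cDC1 WT libraries held 12 counts, a ratio to pDC WT of 14.9 (3.32 to 137). The level in cDC2 stood 2.13 ± 0.98 above cDC1 in WT and 1.53 ± 0.75 above it in KO, in log2 units.

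**Figure D1:**
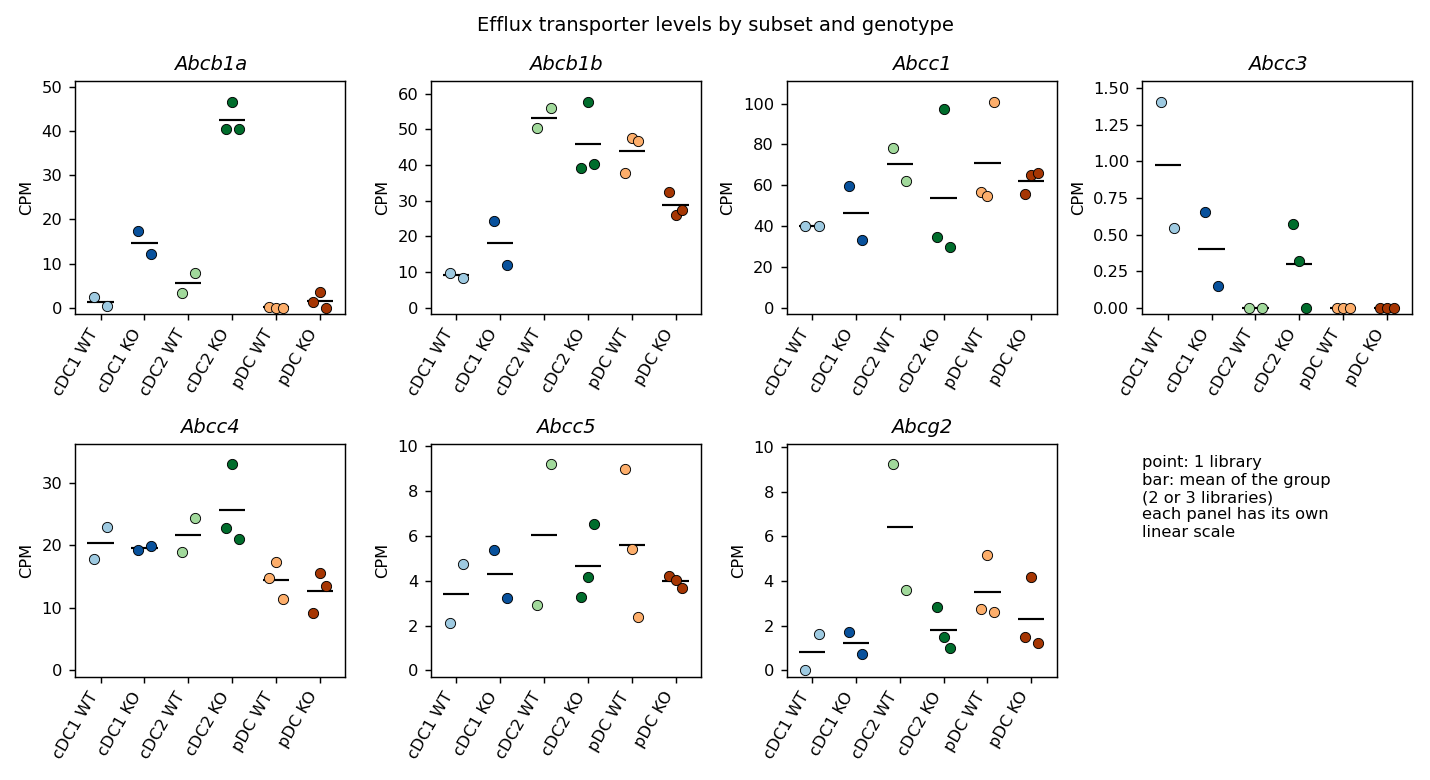
Levels of the 7 transporters in CPM (linear scale, one scale per panel) by group; each point is 1 library and each bar the mean of the 2 or 3 libraries of a group. Abcb1a stands at 40.4 to 46.7 CPM in cDC2 KO and at 3.47 CPM or below in all pDC libraries, while the Abcc1 points of WT and KO overlap in each subset.

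Markers of mature dendritic cells, the state in which the cells raise Ccr7, moved partly along with Abcb1a. The summed CPM of the 8 markers were 595 and 889 in cDC2 WT and 1359, 947 and 1667 in cDC2 KO. In cDC1 they were 1040 and 500 in WT and 889 and 1110 in KO, so that the sums of WT and KO overlapped. In pDC they were 183, 189 and 246 in WT and 603, 474 and 158 in KO, and the KO library with the lowest sum, replicate 3, was also the one without an Abcb1a count. Of the 8 markers, 0 passed the threshold in any KO minus WT comparison. Between 0.0255% and 0.306% of all genes passed there, so a count of 0 in so short a list is not read as a result. In the KO average 6 of the 8 markers were positive, with a median difference of 0.6 beside 0.053 over all genes. Their medians in cDC1, cDC2 and pDC were 0.53, 0.59 and 0.64. Ccr7 was at 109 and 292 CPM in cDC2 WT and at 596, 363 and 933 CPM in cDC2 KO. Ccl17 went the other way, at 77.5 and 217 CPM in cDC2 WT and at 9.27, 27.3 and 34.8 CPM in cDC2 KO. In cDC1 Ccl17 was at 22 and 12.7 CPM in WT and at 2.49 and 3.21 CPM in KO. Ccl22 there was at 86.5 and 42.2 CPM in WT and at 27.6 and 37.6 CPM in KO. A list of 7 NK cell markers summed to 14.3 and 6.78 CPM in cDC2 WT, to 31.1, 16.1 and 5.23 CPM in cDC2 KO, to 5.86 and 3.1 CPM in cDC1 WT and to 12.3 and 7.88 CPM in cDC1 KO. In pDC it summed to 4 CPM or below. Of its 5 tested genes 0 passed in the KO average, beside 0.306% of all genes, which is likewise not read as a result. Of these 5 genes 4 were positive, and the median difference was 2.16. The listed NK genes Ncr1 and Klrb1c were at 0 in both cDC2 WT libraries and in cDC2 KO replicate 3. The other listed NK genes in cDC2 KO replicate 3 were Gzma at 0.581, Eomes at 1.02, Klre1 at 3.48, Klra8 at 0.145 and Prf1 at 0 CPM. Klre1 was at 1.7 and 5.42 CPM in cDC2 WT and at 5.99 and 5.27 CPM in cDC2 KO replicates 1 and 2. In cDC2 KO replicates 1 and 2 Ncr1 was at 1.57 and 0.798 CPM and Klrb1c at 0.856 and 0.638 CPM.

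Single genes of other marker lists also moved with the genotype. In the KO average 1 of 12 pDC markers passed the threshold, 6 were positive, and the list median was -0.01. Of 8 cDC2 markers 1 passed, 4 were positive, and the median was 0.02. Beside these, 0.306% of all genes passed, and the median over all genes was 0.053. Itgam, the gene of the CD11b gate, was higher in KO cDC1 (log2 3.43 ± 0.57, SE, edgeR adjusted p = 0.0431) and in KO pDC (3.68 ± 0.38, adjusted p = 0.000112). The cDC1 call held in 6 of 22 alternatives, and the pDC call in 21 of 21. Scaling by relative log expression, a stricter filter, a replicate block (crossed or not) and a fit of only the compared groups each lost the cDC1 call. The cDC1 call was lost without any 1 of the cDC1 KO or cDC2 libraries, cDC1 WT replicate 2, pDC WT replicate 3 or pDC KO replicates 1 or 2. The pDC marker Cox6a2 was at 1.17 and 0 CPM in cDC1 WT and at 33 and 33.7 CPM in cDC1 KO (adjusted p = 0.00167), and at 272 to 448 CPM in pDC WT and 833 to 1160 CPM in pDC KO. Both genes lie on chromosome 7 near Itgax, whose regulatory sequence drives the Cre (Itgam at chr7:128062640-128118491, Itgax at chr7:128129547-128150657, Cox6a2 at chr7:128205435-128206387). Of 9 tested macrophage markers 1, Timd4, was higher in the KO average and 0 were lower (Timd4 3.38 ± 0.65, adjusted p = 0.0384), with a list median of -0.33. Its call held in 6 of 21 alternatives and was lost under a replicate block and without any 1 of the conventional or pDC WT libraries or pDC KO replicate 1. Timd4 was at 6.33 to 7.53 CPM in conventional WT and 24.1 to 63.9 CPM in conventional KO libraries. The part of the maturation, NK, cDC2, pDC and macrophage markers in the Abcb1a difference was not tested.

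**Figure D2:**
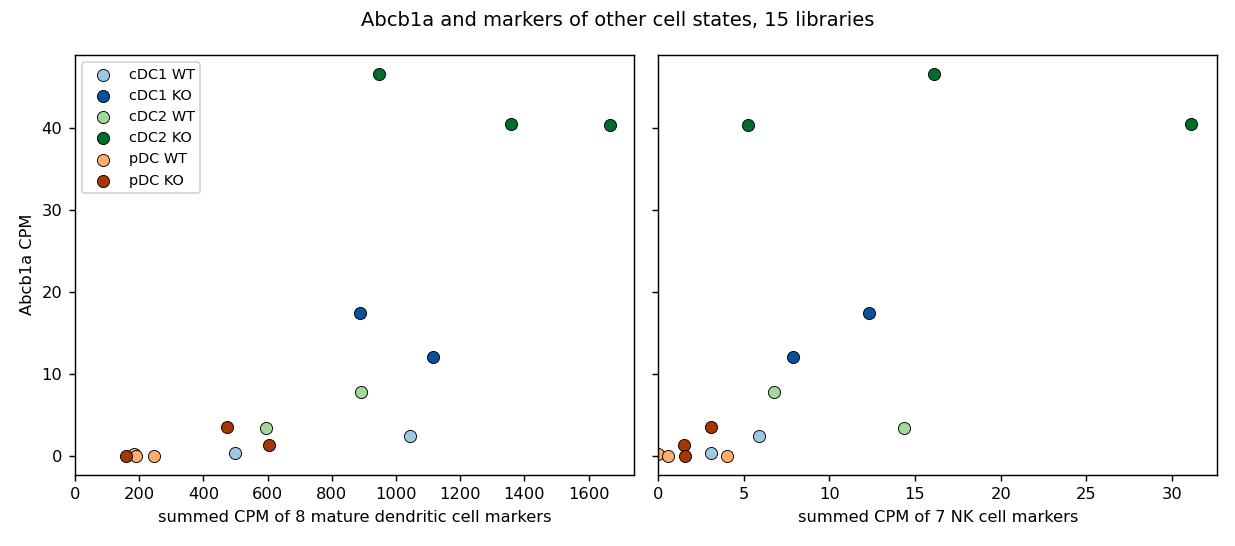
Abcb1a in CPM (vertical) against the summed CPM of 8 mature dendritic cell markers (left) and of 7 NK cell markers (right), 1 point per library, coloured by group. The 3 cDC2 KO libraries spread from 947 to 1667 on the left and from 5.23 to 31.1 on the right with Abcb1a between 40.4 and 46.7, and cDC1 WT replicate 1 reaches 1040 on the left with Abcb1a at 2.35.

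Abcb1b (ENSMUSG00000028970; chr5:8798147-8866315, plus strand), the other P-glycoprotein gene, starts 49571 bases after the end of Abcb1a and followed a different pattern. In cDC1 it was at 9.85 and 8.37 CPM in WT and at 24.3 and 12.1 CPM in KO. In cDC2 it was at 50.3 and 55.9 CPM in WT and at 39.2, 57.8 and 40.4 CPM in KO. In pDC it was at 37.9, 47.6 and 46.7 CPM in WT and at 32.5, 26 and 27.5 CPM in KO. The gene was low in cDC1 and high in both other subsets, including the pDC, where Abcb1a was nearly absent. The KO libraries lay above the WT libraries in cDC1, below them in pDC, and overlapped them in cDC2.

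The means of Abcb1b ran from 53.1 ± 3.97 CPM (SD, n = 2) in cDC2 WT through 45.8 ± 10.4 (n = 3) in cDC2 KO, 44.1 ± 5.36 (n = 3) in pDC WT, 28.7 ± 3.44 (n = 3) in pDC KO and 18.2 ± 8.65 (n = 2) in cDC1 KO to 9.11 ± 1.04 (n = 2) in cDC1 WT. In this order cDC2 WT overlapped cDC2 KO and cDC2 KO overlapped pDC WT, and the other neighbours did not overlap. The KO minus WT difference was 1.00 ± 0.38 (log2, SE) in cDC1, while cDC2 gave -0.21 ± 0.33 and pDC gave -0.62 ± 0.29. Averaged over the subsets it was 0.06 ± 0.19. The cDC1 value was 0.41 without KO replicate 1 and 1.42 without KO replicate 2. In WT cells Abcb1b was 5.83-fold higher in cDC2 than in cDC1 (2.54 ± 0.39) and 4.84-fold higher in pDC than in cDC1 (2.27 ± 0.37). In KO cells these differences were 1.33 ± 0.34 and 0.65 ± 0.34. The KO effect in pDC minus that in cDC1 was -1.62 ± 0.48, and that in cDC2 minus that in cDC1 was -1.21 ± 0.50. Neither passed the threshold, which 0 of 11746 genes (0%) passed for the pDC to cDC1 difference and 1 gene (0.00851%) for the cDC2 to cDC1 difference. By DESeq2 0 transporters passed either, and at an unadjusted p under 0.05 there was 1 in each, which is not read as a result.

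Beside this, counts of the groups that did not overlap say little at these group sizes. Of the 6 tested transporters, Abcb1a and Abcb1b did not overlap between cDC1 KO and WT, where 37.2% of all tested genes did not. In cDC2 these were Abcb1a and Abcg2, beside 34.8% of genes. In pDC the count was 1, Abcb1b, beside 11.3% of genes. Between subsets, 4 of the 6 did not overlap in WT cDC2 against cDC1 (52.9% of genes), 5 in WT pDC against cDC1 (53.2%), 3 in WT pDC against cDC2 (43.3%), 3 in KO cDC2 against cDC1 (34.7%), 3 in KO pDC against cDC1 (51.9%) and 3 in KO pDC against cDC2 (44.8%).

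The share of Abcb1a in the counts of both P-glycoprotein genes does not depend on the scaling of a library. It was 19.2% (95% exact binomial interval 9.63 to 32.5) and 4.17% (0.509 to 14.3) in the cDC1 WT libraries and 41.7% (36.2 to 47.3) and 50% (42.2 to 57.8) in the cDC1 KO libraries. In cDC2 it was 6.33% (3.51 to 10.4) and 12.3% (9.32 to 15.8) in WT and 50.8% (46.6 to 55), 44.7% (42 to 47.4) and 50% (45.8 to 54.2) in KO. Of the KO libraries of both conventional subsets, all 5 had intervals above those of all 4 WT libraries. In pDC it was 0.683% (0.0828 to 2.44) in WT replicate 1, and 0 of the counts in replicates 2 and 3 allowed up to 0.995% and 0.891%. In pDC KO it was 3.98% (1.84 to 7.42), 11.8% (7.78 to 16.9) and 0%, the last allowing up to 2.32%. These intervals cover counting error only, since amplified reads are not independent molecules.

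**Figure D3:**
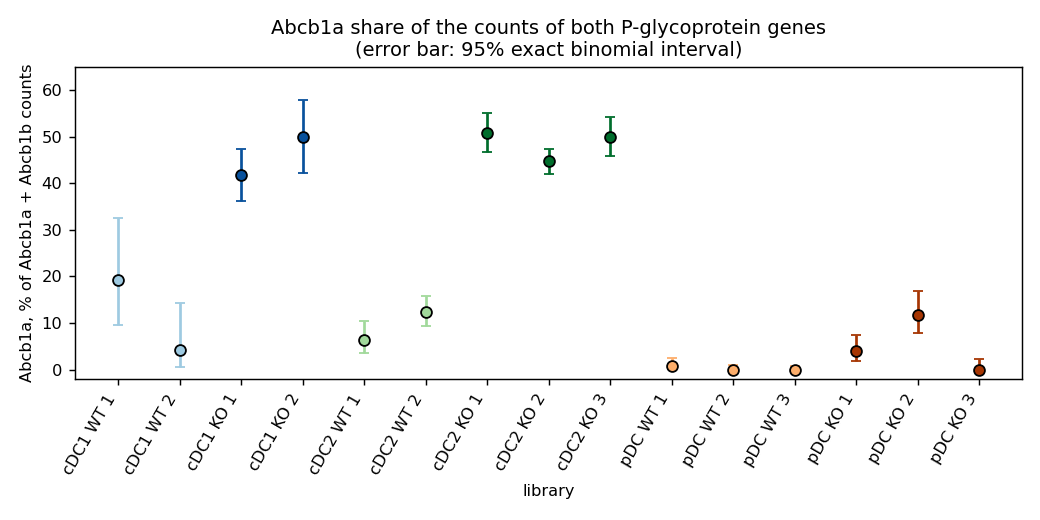
Share of Abcb1a in the summed Abcb1a and Abcb1b counts of each library (percent; bars are 95% exact binomial intervals). The 5 conventional KO libraries lie between 41.7% and 50.8%, the 4 conventional WT libraries between 4.17% and 19.2%, and the pDC libraries between 0% and 11.8%.

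Reads of near-identical genes can be assigned to either copy. Over the longest annotated transcript of each gene, 973 of the 4962 windows of 36 bases in Abcb1a (19.61%) also occurred in Abcb1b, and the same 973 made 22.78% of the windows of Abcb1b. In the last 500 bases, where poly(A)-primed tags fall, 0 of 465 windows of Abcb1a and 29 of 465 windows of Abcb1b (6.24%) were shared. No other gene of the table shared exons with a transporter on the same strand.

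The start regions of the P-glycoprotein genes are shown because the levels of these neighbours moved differently across the groups. Each covers 250 bases before to 50 bases after a RefSeq start in GRCm38.p6, and 5 of the 7 transporters had such an entry. Capitals mark CCAAT (either strand) and GGGCGG (either strand).

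Abcb1a, chr5:8566841-8567140, plus strand: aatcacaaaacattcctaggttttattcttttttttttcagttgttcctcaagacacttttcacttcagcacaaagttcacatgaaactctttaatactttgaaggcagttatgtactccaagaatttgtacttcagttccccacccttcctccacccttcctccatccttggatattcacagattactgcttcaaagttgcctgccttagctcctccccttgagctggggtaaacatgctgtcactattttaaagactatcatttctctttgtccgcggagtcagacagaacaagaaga

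Abcb1b, chr5:8797897-8798196, plus strand: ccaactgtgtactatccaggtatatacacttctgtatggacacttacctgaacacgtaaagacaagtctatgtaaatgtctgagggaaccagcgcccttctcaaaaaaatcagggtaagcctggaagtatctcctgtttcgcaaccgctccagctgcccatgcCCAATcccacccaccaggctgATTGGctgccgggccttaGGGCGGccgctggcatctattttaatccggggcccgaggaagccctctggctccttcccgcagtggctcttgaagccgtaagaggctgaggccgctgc

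The Abcb1a stretch held neither motif, had 40.3% G and C and 2 CpG pairs. Its RefSeq start lies 92986 bases before the GENCODE start used for counting coordinates above, within the span of Rundc3b, which runs on the minus strand at chr5:8490334-8622952. The Abcb1b stretch had 55% G and C and 12 CpG pairs, and its RefSeq and GENCODE starts are the same. It held CCAAT 87 bases before the start on the plus strand and 66 bases before it on the minus strand, and GGGCGG 48 bases before it. Of 32851 RefSeq start regions of this length, 37.41% held CCAAT and 35.66% held GGGCGG on either strand. Their median was 52.7% G and C (quartiles 45.7 and 61.7) and 7 CpG pairs (quartiles 3 and 20). Neither stretch held TGACG, found in 20.81% of start regions, or GCGTG, found in 32.39%. TGACNNNGC, found in 12.39%, occurred once in the Abcb1a stretch, on the minus strand 27 bases after the start, and not in the Abcb1b stretch. A match or its absence is a description of these letters only.

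The genes around Abcb1a were examined after its values had been seen, within 500 kb on each side. Of the 10 genes there, all entered the fit. Abcb1a was the single one past the threshold in the average over the subsets, beside 0.306% of all tested genes. Because the window was drawn around Abcb1a with its values known, nothing is read from that count. Rundc3b, whose span holds the RefSeq start of Abcb1a, was at 1.41 and 2.18 CPM in cDC1 WT, at 11 and 3.65 CPM in cDC1 KO, at 2.91 and 1.96 CPM in cDC2 WT and at 8.42, 12.7 and 7.7 CPM in cDC2 KO. Its KO libraries lay above its WT libraries in both subsets. The differences in cDC1, cDC2 and pDC were 2.01 ± 0.82, 1.99 ± 0.76 and -0.12 ± 0.61 (log2, SE), and 1.29 ± 0.42 on average (edgeR adjusted p = 0.295). Abcb4, the phospholipid exporter next to Abcb1b, was at 0.243 and 1.05 CPM in cDC2 WT and at 4.42, 3.03 and 2.03 CPM in cDC2 KO. Its differences were 1.52 ± 1.1, 2.14 ± 0.89 and -0.41 ± 0.60 in cDC1, cDC2 and pDC, and 1.09 ± 0.51 on average (edgeR adjusted p = 0.484). Dbf4, Slc25a40, Crot, Tmem243, Dmtf1 and Adam22 had average differences between -0.43 and -0.07.

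Abcc1 (ENSMUSG00000023088; chr16:14361558-14475737, plus strand), the MRP that exports leukotriene C4 and glutathione conjugates, was measured in every library without separating WT from KO. It was at 39.9 and 40.1 CPM in cDC1 WT, at 59.7 and 33.3 CPM in cDC1 KO, at 78.4 and 62.1 CPM in cDC2 WT and at 34.8, 97.2 and 29.8 CPM in cDC2 KO. In pDC it was at 56.7, 54.6 and 101 CPM in WT and at 55.8, 64.8 and 66 CPM in KO. The 2 highest values, in cDC2 KO replicate 2 and pDC WT replicate 3, came from the 2 libraries with the most counts. Its means ran from 70.7 ± 26.2 CPM (SD, n = 3) in pDC WT to 40 ± 0.128 CPM (SD, n = 2) in cDC1 WT, and all neighbours in that order overlapped. The KO minus WT differences in cDC1, cDC2 and pDC were 0.22 ± 0.48, -0.38 ± 0.43 and -0.19 ± 0.39 (log2, SE). The cDC2 value was -1.17 without cDC2 KO replicate 2.

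Abcc4 (ENSMUSG00000032849; chr14:118482692-118706219, minus strand), which exports cyclic nucleotides and prostaglandins, was somewhat lower in the pDC than in the conventional libraries. It was at 17.8 and 22.9 CPM in cDC1 WT, at 19.2 and 19.8 CPM in cDC1 KO, at 18.9 and 24.4 CPM in cDC2 WT and at 22.8, 33 and 21.1 CPM in cDC2 KO. In pDC it was at 14.7, 17.3 and 11.5 CPM in WT and at 9.15, 15.6 and 13.5 CPM in KO. All 9 conventional libraries lay above all 6 pDC libraries, by a narrow gap (17.8 CPM in cDC1 WT against 17.3 CPM in pDC WT). The share of all genes that separate these libraries in this way was not computed, so nothing is read from it. In KO cells the level was 2.01-fold lower in pDC than in cDC2 (log2 -1.01 ± 0.32, SE), and in WT cells the difference was -0.58 ± 0.36. Against cDC1 the pDC differences were -0.49 ± 0.36 in WT and -0.62 ± 0.36 in KO. The KO minus WT differences were -0.06 ± 0.39, 0.24 ± 0.36 and -0.19 ± 0.32 in cDC1, cDC2 and pDC, and 0 ± 0.2 on average.

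Abcc5 (ENSMUSG00000022822; chr16:20331303-20426394, minus strand), an exporter of cyclic nucleotides and nucleotide analogues, lay between 2.11 and 9.19 CPM in the 15 libraries. Its group means lay between 3.42 ± 1.85 CPM (SD, n = 2) in cDC1 WT and 6.05 ± 4.44 CPM (SD, n = 2) in cDC2 WT, and all neighbours in the order overlapped. The 2 cDC2 WT libraries alone, at 2.91 and 9.19 CPM, spanned most of the range. KO minus WT differences were 0.31 ± 0.80, -0.40 ± 0.71 and -0.49 ± 0.64 in cDC1, cDC2 and pDC.

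Abcc3 (ENSMUSG00000020865; chr11:94343295-94392997, minus strand), an exporter of glucuronides and bile salts known from liver and gut, held 23 counts over all libraries. The cDC1 WT libraries held 6 and 3 counts, the cDC1 KO libraries 5 and 1, and the cDC2 KO libraries 4, 4 and 0. The cDC2 WT and all pDC libraries held none, which allows up to 0.279 CPM in cDC2 WT, 0.124 CPM in pDC WT and 0.153 CPM in pDC KO (3 counts per group). With pDC WT set to the floor of 3 counts, the cDC1 WT rate was 7.46-fold that of pDC WT. The 95% exact lower limit of the ratio of cDC1 WT to pDC WT, which takes in the counting error of both groups, was 4.91. The ratio of KO to WT in cDC1 was 0.449, with a 95% exact interval of 0.131 to 1.41.

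Abcg2 (ENSMUSG00000029802; chr6:58584523-58695676, plus strand), the porphyrin and drug exporter that lets some stem cells expel dyes, was low everywhere. It was at 9.23 and 3.61 CPM in cDC2 WT and at 2.85, 1.52 and 1.02 CPM in cDC2 KO, which did not overlap. In cDC1 it was at 0 and 1.64 CPM in WT and at 1.7 and 0.729 CPM in KO, and in pDC at 2.73, 5.16 and 2.61 CPM in WT and 1.5, 4.17 and 1.23 CPM in KO. The order of means was cDC2 WT (6.42 ± 3.97 CPM, SD, n = 2), pDC WT, pDC KO, cDC2 KO, cDC1 KO and cDC1 WT (0.819 ± 1.16 CPM, SD, n = 2), with overlap between all neighbours. The KO minus WT difference in cDC2 was -1.82 ± 1.01 (log2, SE), a 3.54-fold lower level, and -0.99 without cDC2 WT replicate 1. The cDC1 WT libraries held 0 and 9 Abcg2 counts, so the fitted differences from cDC1 WT, 2.88 ± 1.24 for cDC2 WT and 2.01 ± 1.15 for pDC WT, rest on 1 library.

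**Figure D4:**
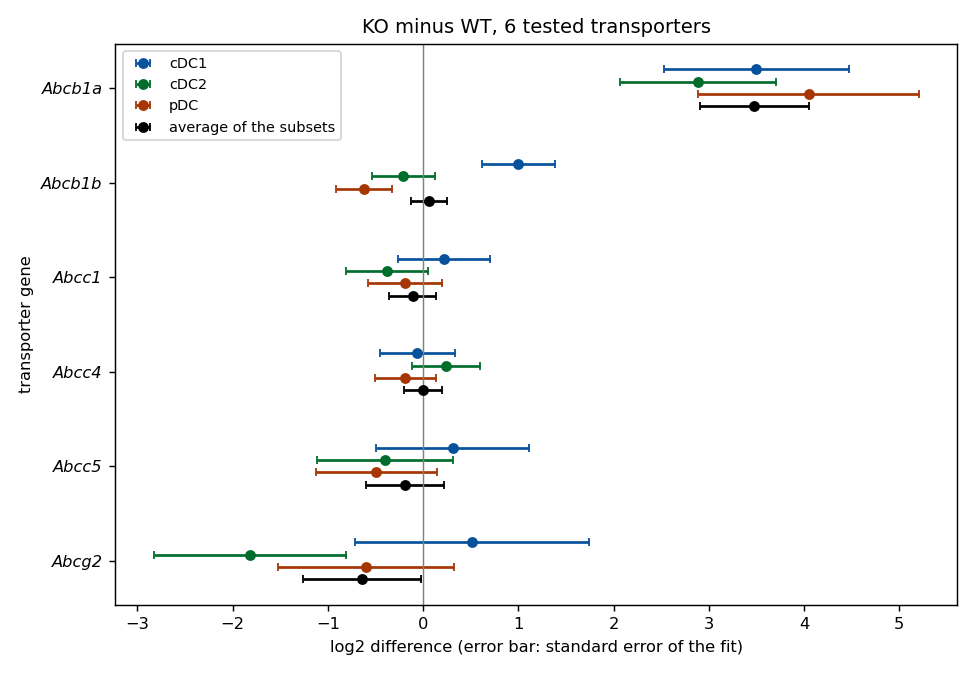
KO minus WT differences of the 6 tested transporters on the log2 scale, by subset and averaged; points are fitted values and bars the standard error of the fit. Abcb1a lies between 2.89 and 4.05 in the subsets, and the averages of the other transporters lie between -0.64 and 0.06.

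Across subsets of the same genotype, the transporters past the threshold in edgeR's test were 1 in WT cDC2 against cDC1 (Abcb1b, higher; 8.73% of all genes passed), 2 in WT pDC against cDC1 (Abcb1a lower, Abcb1b higher; 27.7%), 1 in WT pDC against cDC2 (Abcb1a, lower; 23.6%), 1 in KO pDC against cDC1 (Abcb1a, lower; 21.5%) and 2 in KO pDC against cDC2 (Abcb1a and Abcc4, lower; 25.9%). In KO cDC2 against cDC1 it was 0, beside 1.27% of genes, with 1 transporter at an unadjusted p under 0.05 and 1 by DESeq2, Abcb1b. These counts follow from levels that chose the transporters and are not read as results. Abcb1a passed in WT pDC against cDC1 in 4 of 15 fits that left out 1 library. It did not pass in KO pDC against cDC1 without cDC1 KO replicate 1, and Abcc4 did not pass without cDC2 KO replicate 2, pDC KO replicate 1 or pDC KO replicate 3.

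**Figure D5:**
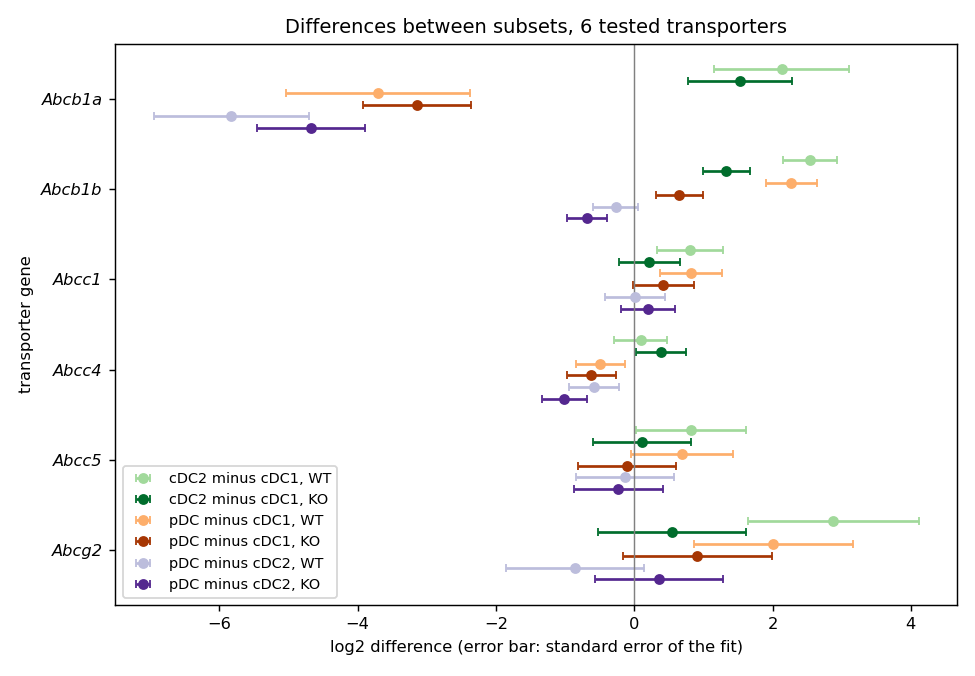
Differences between subsets within a genotype for the 6 tested transporters on the log2 scale; points are fitted values and bars the standard error of the fit. Abcb1a is lower in pDC than in either conventional subset in both genotypes (-5.83 to -3.14), and Abcb1b is higher in cDC2 and pDC than in cDC1 (0.65 to 2.54).

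Over the 15 libraries, the genes most like Abcb1a in log2 CPM were Ifitm1 (r = 0.964), Pxdc1 (r = 0.954) and Ndnf (r = 0.933), given without p because all points share the same 6 groups. Ifitm1 lay at 2.67 and 3.92 CPM in cDC2 WT and at 31.8, 24.7 and 19.9 CPM in cDC2 KO, and at 0.364 to 2.11 CPM in cDC1 WT and 5.69 to 6.93 CPM in cDC1 KO. Most like Abcb1b were Ssh2 (0.93), Klrd1 (0.917) and Rgl1 (0.909). For Abcc1 they were Dhx9 (0.883), Tulp4 (0.844) and Brwd3 (0.834), and for Abcc4 March1 (0.935), Hnrnpul2 (0.915) and Utp20 (0.905). For Abcc5 they were LTO1 (0.838), Golga3 (0.814) and Otud6b (0.813), and for Abcg2 Klhl20 (0.898), Asxl2 (0.858) and Arl13b (0.848). Abcb1a and Abcb1b correlated at 0.125 with each other, and Abcb1a and Abcc4 at 0.651.

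The rest of the ABC family served to show where the efflux transporters stood. Of 46 other ABC genes, 28 entered the fit, and in the average over the subsets 0 rose and 1 fell in KO, with a median difference of -0.1 beside 0.053 over all genes. The gene that fell was Abca1, the cholesterol exporter that loads apolipoprotein A-I, with a difference of -1.48 ± 0.29 (log2, SE; edgeR adjusted p = 0.0363). Abca1 was at 16.5 and 20.6 CPM in cDC2 WT and at 5.71, 5.27 and 2.32 CPM in cDC2 KO. In pDC it was at 58.9, 48.6 and 43.4 CPM in WT and at 10.6, 4.72 and 18.6 CPM in KO, and in cDC1 at 4.46 and 4.73 CPM in WT and at 4.71 and 3.06 CPM in KO. WT and KO did not overlap in cDC2 and pDC and did overlap in cDC1. The Abca1 call held in 7 of 21 alternatives and was lost when a replicate block was added or when any 1 library other than pDC WT replicate 3, pDC KO replicate 2 or pDC KO replicate 3 was left out. In the single subsets 0 other ABC genes passed by edgeR, and DESeq2 called 0, 1 and 1 in cDC1, cDC2 and pDC, each time Abca1. At an unadjusted p under 0.05 there were 1, 5 and 4, given without the share of all genes and not read as a result.

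Between WT subsets, 5 of the 28 other ABC genes were higher and 2 lower in pDC than in cDC1, beside 27.7% of all genes called in either direction. Higher were Abcb4 (0.364 ± 0.515 CPM in cDC1, n = 2, and 21.8 ± 12.8 CPM in pDC, n = 3, SD; log2 5.72 ± 1.00, edgeR adjusted p = 0.000359), Abca1, Abca5 (3.78 ± 0.66, adjusted p = 0.000371), Abcf1 and Abcd3, a carrier of fatty acids into peroxisomes. The peptide transporters of antigen presentation Tap1 (-1.48 ± 0.45, adjusted p = 0.0207) and Tap2 (-1.78 ± 0.37, adjusted p = 0.0016) were lower. Abcb4 rested on 4 counts in cDC1 WT. The Tap1 call was lost without cDC1 WT replicate 1, cDC1 WT replicate 2 or pDC WT replicate 3, and that of Abcd3 without cDC1 WT replicate 2. So Abcb1a was lower in WT pDC than in cDC1 while the adjacent genes Abcb1b and Abcb4 were higher there. In WT cDC2 against cDC1, beside 8.73% of all genes, 3 were higher and 0 lower: Abca9 (126 counts against 3), Abcf1 and Abca1. Each of these calls was lost without cDC1 WT replicate 1 or without cDC2 WT replicate 2, those of Abca9 and Abca1 also without cDC1 WT replicate 2, and those of Abcf1 and Abca1 also without cDC2 WT replicate 1. In KO pDC against cDC2, beside 25.9% of all genes, 4 were higher and 3 lower, among the latter Abcg3, a mouse relative of Abcg2 (-2.91 ± 0.44, adjusted p = 7.62e-05). 

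The gene lists tied to efflux are read beside the 0.306% of all genes that passed in the KO average. Among 17 tested regulators of drug and stress response genes, 0 rose and 1 fell in the average, Rxra, the partner receptor of several ligand-activated nuclear receptors (-1.16 ± 0.24, log2, SE; edgeR adjusted p = 0.0421), with a list median of 0. Rxra was at 42 and 24.1 CPM in cDC2 WT and at 5.28, 12 and 10 CPM in cDC2 KO, at 27.4 and 37.3 CPM in cDC1 WT and at 23.3 and 21.3 CPM in cDC1 KO. In pDC it was at 5.6, 5.93 and 8.61 CPM in WT and at 3.6, 2.92 and 2.8 CPM in KO, so that its groups did not overlap in any subset. The Rxra call held in 6 of 21 alternatives. It was lost under a replicate block, without any 1 of the cDC1, cDC2 KO or pDC KO libraries, without cDC2 WT replicate 1, and without pDC WT replicate 2 or 3. Of 12 tested genes of glutathione synthesis and conjugation, 11 of eicosanoid synthesis and clearance, 14 of heme synthesis and export, 13 of drug and nucleoside uptake, 9 membrane linkers and trafficking factors and 14 of drug metabolism, 0 passed in the average by edgeR. At an unadjusted p under 0.05 the counts were 0, 0, 0, 1, 1 and 3, and DESeq2 called 1, Aldh2. Their medians were 0.06, 0, 0.28, 0.22, -0.09 and 0.29 beside 0.053 over all genes. In the single subsets these 6 lists also held 0 calls by edgeR. DESeq2 called Slco4a1 (uptake) and Aldh2 (drug metabolism) in KO against WT cDC2, and 0 in cDC1 and pDC. At an unadjusted p under 0.05 the cDC2 counts, in the same order of lists, were 0, 1, 2, 3, 1 and 1. The pDC counts were 0, 0, 0, 2, 0 and 2, and the cDC1 counts were all 0. These counts are given without the share of all genes and are not read as results.

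Between WT pDC and cDC1, where 27.7% of all genes passed, the counts in these lists are given as a description. Of the 17 tested regulators 2 were higher and 4 lower, among them the aryl hydrocarbon receptor Ahr (-2.74 ± 0.44, log2, SE; edgeR adjusted p = 0.000172) and Rxra (-2.27 ± 0.41, adjusted p = 0.000447). Of the uptake genes 4 were higher and 2 lower, led by the organic anion carrier gene Slco4a1 (6.44 ± 0.86, adjusted p = 2.44e-05) with 0 and 1.64 CPM in cDC1 WT and 52.5 to 91.1 CPM in pDC WT. Of the heme genes 2 were higher and 1 lower, with the biliverdin reductase Blvrb higher (2.79 ± 0.58, adjusted p = 0.00153). Of the eicosanoid genes 0 were higher and 3 lower, among them the leukotriene receptor Cysltr1 (-2.25 ± 0.60, adjusted p = 0.00928, lost without cDC1 WT replicate 2). Of the glutathione genes 0 were higher and 2 lower, Gsto1 (-2.19 ± 0.43, adjusted p = 0.000979) and Gclc, a subunit of the enzyme that limits glutathione synthesis, whose call was lost without cDC1 WT replicate 1, pDC WT replicate 1 or pDC WT replicate 2. Of the linkers 0 were higher and 2 lower, with the recycling factor Rab11fip1 at -4.48 ± 0.73 (adjusted p = 0.000324). Of the drug metabolism genes 1 was higher and 2 lower, with the sulfotransferase Sult1a1 at -7.55 ± 0.83 (adjusted p = 5.33e-06), 60.7 to 66.4 CPM in cDC1 WT and 0 to 0.907 CPM in pDC WT.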

How the data were processed

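Sorted thymic dendritic cells gave 15 libraries in 6 groups. Per the labels' protocols, poly(A) RNA was reverse transcribed with barcoded oligo-dT primers, pooled, ligated to a second linker and amplified for 12 PCR cycles into strand-specific libraries. The authors deposited raw counts per Ensembl gene, and per the submitters' processing notes STAR, HTSeq, DESeq2 and mm10 were used, with no versions given. Reads without molecular identifiers are not independent molecules.

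From the counts, CPM with trimmed-mean scaling and edgeR's quasi-likelihood test (edgeR 4.0.16, limma 3.58.1, R 4.3.3) were computed, with 1 fit over all 15 libraries, filterByExpr, robust dispersion (common coefficient of variation 0.395), 13 contrasts and Benjamini-Hochberg adjustment over 11746 genes, at a threshold of 0.05. DESeq2 1.42.0 was an alternative. The code was tested on simulated counts. Symbols came from a gene table for 21745 of 22165 genes. The transporters and the 25 gene lists (272 of 275 symbols in the table) were chosen with earlier results of these data known. Named were all 7 transporters, of each subfamily of the other ABC genes and of each list up to 3 genes past the threshold with the smallest p per contrast, for each tested transporter the 3 genes with the highest Pearson r of log2 CPM (prior count 2) with a curated symbol, and Stk11. The genes around Abcb1a fall outside this rule. So do Aldh2 in the KO average, and Aldh2 and Slco4a1 in KO against WT cDC2, called by DESeq2 and not by edgeR. The single marker genes given by level (Xcr1, Ccr7, Ccl17, Ccl22, Ncr1, Klrb1c, Gzma, Eomes, Klre1, Klra8, Prf1) also fall outside it. All of these were chosen after their values were seen. RefSeq start regions gave the sequences. Abcc1 and Abcc3 start regions and protein sequences were not used here. The other lists named by marker were thymocyte, B cell, monocyte and neutrophil, macrophage, erythroid, melanoma and stroma, used as summed levels (Timd4 of the macrophage list also by itself). The thymocyte list summed to 98.7 to 265 CPM in the conventional and 336 to 496 CPM in the pDC libraries, and the melanoma list to 18.8 CPM at most.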

Additional observations from a re-analysis of the deposited data

How the results depend on the processing

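The number of transporters past the threshold was compared in 275 pairings of a contrast with an alternative fit, pooled over 13 contrasts. It was within 1.5 times its reported value in 244 of them. Contrasts with a reported count of 0 are included, so this share does not describe how stable the calls above 0 were. Scaling by relative log expression or a stricter filter (10 CPM in 2 libraries) changed no count. Abcc5 and Abcg2, at 9.23 CPM or below in every library, did not pass that filter and were not tested under it. Without a filter the number of transporters past the threshold was 1 instead of 0 in KO against WT for cDC1, cDC2 and pDC alike (Abcb1a). It was 2 instead of 1 in WT cDC2 against cDC1, and 1 instead of 2 in KO pDC against cDC2. With only the compared groups it was 1 instead of 2 in WT pDC against cDC1 and 1 instead of 0 in KO cDC2 against cDC1. This could not be run for the average, which needs all groups. DESeq2 gave 1 in KO against WT for cDC2 (Abcb1a), 2 in WT cDC2 against cDC1 (Abcb1b, Abcg2) and 1 in KO cDC2 against cDC1 (Abcb1b). The average over cDC1 and cDC2 only, chosen after seeing the data, gave 0 instead of 1. The cause was not tested. Replicate numbers were compared only between KO and WT libraries of the same subset. Deviations of same-numbered libraries correlated between -0.15 and 0.089, and those of differently numbered ones between -0.134 and 0.15. In groups of 2 libraries the deviations mirror each other, and different subsets with the same number were not compared. Whether the numbers pair libraries was therefore not settled. A replicate block gave 1 instead of 2 in WT pDC against cDC1 (Abcb1b) and moved no other count of transporters. With the cDC1 KO numbers crossed, chosen after seeing the data, 0 passed in cDC1 and 1 in the average. Leaving out 1 library at a time gave 0 to 1 in the KO average, 1 to 2 in WT pDC against cDC1, 0 to 1 in KO pDC against cDC1 and 1 to 2 in KO pDC against cDC2. It gave 1 in WT cDC2 against cDC1 and in WT pDC against cDC2 each time, and 0 in the other 7 contrasts. A group left with 1 library was assumed to vary like the others. Of the other named genes, Tap1 in WT pDC against cDC2 was -2.25 without cDC2 WT replicate 1 and changed sign without replicate 2 (0.37). Values of Abcb1a in pDC WT (2 counts), Abcg2 in cDC1 WT (9 counts) and Abcc3 (23 counts in all) rest on few counts.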
